A study of Homo sapiens with 24 samples.

Results

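The Krüppel-like factors KLF2, KLF4, KLF5, KLF6, KLF9 and KLF10 were followed over the 48 h after replating of HepaRG hepatocyte-like cells. Every probe set annotated to one of these 6 symbols alone was a member, which gave 12 of the 22215 non-control probe sets. KLF6 and KLF9 had 3 probe sets each, KLF4 and KLF5 had 2 each, and KLF2 and KLF10 had 1 each. HepaRG is a human liver progenitor line that matures into hepatocyte-like and biliary-like cells. Cells of all groups had grown in William's E medium with serum, penicillin, streptomycin, insulin and hydrocortisone hemisuccinate, with DMSO added for the later weeks. Hepatocyte-like cells were then lifted off selectively with mild trypsin and replated sparsely to set off reprogramming. Samples collected at 7 times after replating (1, 4 and 8 h, then 12, 16 and 24 h, and last 48 h) gave 3 arrays each and were compared with 3 arrays at 0 h. The medium used after replating is not given in the sources used here. All groups are this 1 line, so the cells have no other genetic background, and separate cultures are not stated for the replicates. The p-values therefore measure only how far these samples spread, and that spread may be technical.

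Krüppel-like factors bind GC-rich and CACCC-type DNA through zinc fingers at the C-terminal end, and their differing N-terminal parts recruit activators or repressors. Many of them are immediate or delayed early genes, whose transcripts rise quickly when a cell is stimulated and are soon removed again. In liver, KLF6 is known for its induction after injury, KLF9 as a target of glucocorticoid and thyroid hormone receptors, and KLF10 as an early target of TGF-beta. KLF4 is one of the factors used to reprogram somatic cells to pluripotency, KLF5 is known for driving proliferation in epithelial progenitors, and KLF2 for its induction in endothelium by flow.

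The promoters of KLF2, KLF4 and KLF6 are shown because these genes rose at 1 h and their courses over the 8 times were alike, with correlations of 0.91 to 0.97 between them. KLF10 and KLF5 also rose at 1 h and correlated with these genes at 0.88 to 0.92 and 0.73 to 0.92. Each window holds the 250 bases before the start site in RefSeq (GRCh38.p14), read 5′ to 3′ on the gene's strand. KLF2 lies at chr19:16324576-16324825 on the plus strand, KLF4 at chr9:107489770-107490019 on the minus strand and KLF6 at chr10:3785210-3785459 on the minus strand. Capitals mark GGGCGG, the core of a GC box, on either strand.
KLF2: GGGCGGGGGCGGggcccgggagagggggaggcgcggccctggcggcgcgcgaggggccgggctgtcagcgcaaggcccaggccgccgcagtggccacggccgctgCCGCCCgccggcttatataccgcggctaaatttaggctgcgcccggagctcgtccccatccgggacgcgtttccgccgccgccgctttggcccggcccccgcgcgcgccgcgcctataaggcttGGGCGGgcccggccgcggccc
KLF4: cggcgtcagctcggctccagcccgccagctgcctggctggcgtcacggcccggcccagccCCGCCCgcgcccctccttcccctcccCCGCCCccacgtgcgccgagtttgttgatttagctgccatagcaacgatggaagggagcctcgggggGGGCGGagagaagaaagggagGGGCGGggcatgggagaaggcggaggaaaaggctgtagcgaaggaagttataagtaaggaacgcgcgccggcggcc
KLF6: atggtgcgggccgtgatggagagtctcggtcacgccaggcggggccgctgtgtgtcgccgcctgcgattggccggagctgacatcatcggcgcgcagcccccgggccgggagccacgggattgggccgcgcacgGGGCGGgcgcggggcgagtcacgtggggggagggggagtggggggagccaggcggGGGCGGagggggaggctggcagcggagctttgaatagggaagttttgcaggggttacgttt
GC content was 80% for KLF2, 69.2% for KLF4 and 72.4% for KLF6, against a median of 58% over 35116 promoter windows of this length. GGGCGG occurred 4 times in the KLF2 window, 4 times in the KLF4 window and 2 times in the KLF6 window, and 42.6% of all windows hold it on at least 1 strand. The KLF2 window has a match to the MEF2 site, ctaaatttag, starting 120 bases before the start site, which 2.8% of all windows share. KLF4 has 2 matches to TGACG, the core of cyclic AMP response elements, found in 21.2% of all windows. KLF6 has 2 matches to CCAAT, read on the minus strand of the window and found in 32% of all windows. Searched on both strands without a match in these 3 windows were CACCC (held by 54.7% of all windows), TATAAA (10.7%), the full cyclic AMP response element (TGACGTCA, 1.65%), a variant of it (TGACGCAA, 0.478%) and the CArG box (1.16%). These matches describe the letters of the windows.

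Arrays of the same time correlated with r of 0.929 to 0.966 over the 17122 probe sets that passed the filter on low signal. The ratio of 3' to 5' signal for the ACTB controls, higher where RNA is degraded, was 2.03, 6.91 and 2.56 on 0 h replicates 1 to 3. It was 1.57 to 1.85 at 1 h, 1.34 to 2.12 at 4 h and 1.02 to 1.57 from 8 h to 48 h. The 0 h arrays, the baseline of every comparison with 0 h, thus had higher ratios than most later arrays. The summed signal of 9 hepatocyte markers was 136000 to 158000 at 48 h, against 440000 to 479000 at 0 h, and all 9 were called lower, so the labelled cell type was borne out at 0 h and its markers were lower at the end. Among 8 endothelial markers 2 were measurable, and CDH5 was below the filter on every array. The sum over all 8 was 231 to 479 at 1 h and 391 to 561 at 0 h. Among 7 leukocyte markers on the array 4 were measurable, and LYZ was below the filter on every array. The sum over all 7 was 761 to 1100 at 1 h and 612 to 944 at 0 h. The 7 stellate cell markers summed to 1650 to 1860 at 1 h and 1640 to 2230 at 0 h. The 7 biliary markers on the array, 5 of them measurable, summed to 7560 to 9300 at 1 h and 4690 to 5160 at 0 h. Later, the biliary sum was 20200 to 25800 at 4 h and 16100 to 20500 at 48 h, and the stellate sum was 1620 to 2160 at 4 h and 3420 to 4500 at 48 h. KRT19 made up most of the biliary sum, with means of 3360 at 0 h and 16100 at 48 h. SPP1 averaged 969 and 1760, KRT7 36.7 and 108, SOX9 517 and 379, and KRT23 40 and 47.6. Called higher at 48 h were 2 of 5 biliary and 2 of 7 stellate markers, with 9.23% of all tested probe sets. ACTA2 (1160 and 2610) and DCN (380 and 1000) made up most of the stellate sum. The endothelial and leukocyte sums at 48 h were 127 to 238 and 327 to 450. The part of RNA quality or of these markers in the changes of these genes was not tested.

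At 1 h, 8 of the 12 member probe sets were called higher than at 0 h and none lower, covering KLF2, KLF4, KLF5, KLF6 and KLF10. A probe set was called changed at a Benjamini-Hochberg adjusted p under 0.05 in limma and at least 2-fold. Of all 17122 tested probe sets, 1.99% were called higher at 1 h and 0.549% lower. The median log2 change at 1 h was 1.98 over the member probe sets and -0.074 over all tested probe sets. In bulk RNA, fewer cells of a type and less RNA per cell cannot be told apart, and this holds for every change given here. All 12 members passed the filter on low signal, and all 12 passed a moderated F-test over the 7 later times, as did 53.6% of all tested probe sets.

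**Figure D1:**
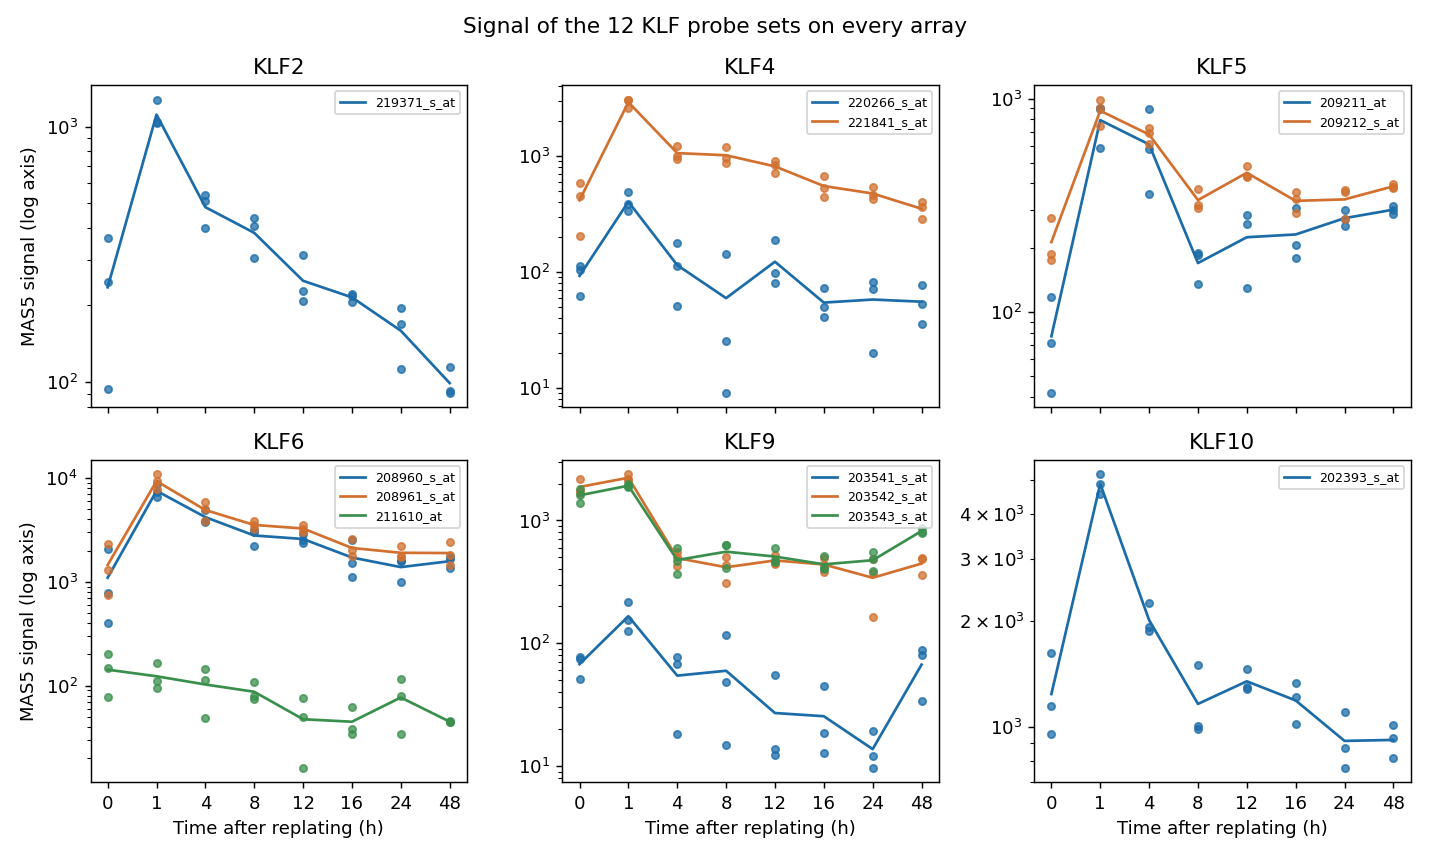
MAS5 signal of every member probe set on each of the 24 arrays, on a log axis, against hours after replating, with 1 panel per gene, points for arrays and lines through the means of 3 arrays. KLF2, KLF4, KLF5, KLF6 and KLF10 peak at 1 h in their bright probe sets, and KLF9 drops between 1 h and 4 h.

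KLF2 peaked at 1 h and had its lowest mean at 48 h. Its probe set 219371_s_at read 1038, 1275 and 1028 at 1 h, against 245, 365 and 94.1 at 0 h. The groups did not overlap, and 0 h replicate 3 was the lowest of the 0 h arrays. KLF2 rose 5.02-fold at 1 h, by 2.33 ± 0.30 on the log2 scale (SE, limma adjusted p = 6.7e-07). Its signals were 540, 511 and 399 at 4 h, then 439, 305 and 406 at 8 h. By 16 h all 3 arrays, at 216, 222 and 205, lay inside the range of the 0 h arrays. At 48 h they were 92.2, 90.6 and 113.9, where 0 h replicate 3 falls within their range. The change at 48 h was -0.95 (adjusted p = 0.012), which did not reach 2-fold, and it was called without 0 h replicate 3 (-1.45) or without 48 h replicate 3 (-1.04). At 8 h the change was 0.82 (adjusted p = 0.03), under 2-fold, and 1.21 and called without 0 h replicate 2. KLF2 was also called higher at 4 h, by 1.15 (adjusted p = 0.0033), but without 0 h replicate 3 this was 0.65 (adjusted p = 0.074). From 1 h to 4 h KLF2 fell by 1.18 ± 0.30 on the log2 scale (adjusted p = 0.0034).

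KLF4 rose at 1 h in both probe sets. In the brighter one, 221841_s_at, it was called higher up to 12 h and overlapped its 0 h signals from 16 h on. Probe set 221841_s_at read 2615, 3070 and 3061 at 1 h, against 586, 455 and 205 at 0 h. The 1 h arrays were close together, while the 0 h arrays spread widely, with replicate 3 lowest. The rise was 7.32-fold, or 2.87 ± 0.23 in log2 (adjusted p = 3.2e-11). KLF4 then read 1012, 953 and 1220 at 4 h and 1202, 875 and 972 at 8 h, a plateau on which the arrays of these times overlapped. At 12 h it read 900, 715 and 832, at 16 h 447, 532 and 677, and at 24 h 461, 540 and 426. It was called higher at 4 h by 1.43, at 8 h by 1.36 and at 12 h by 1.05 (adjusted p = 1.3e-05, 1.9e-05 and 0.00049). Without 0 h replicate 3 the 8 h and 12 h changes were 0.94 and 0.63 and missed 2-fold, as did the 12 h change without 12 h replicate 1, at 0.98. With the KLF4 probe sets averaged, the changes at 4, 8 and 12 h were 0.80, 0.22 and 0.68, all under 2-fold and not called. At 48 h the signals were 403, 366 and 286, and the change of -0.13 had a 95% interval of -0.60 to 0.35 (adjusted p = 0.72). The dimmer KLF4 probe set 220266_s_at read 486, 387 and 339 at 1 h, against 61.6, 105 and 111.8 at 0 h. It too was called higher at 1 h, by 1.95 ± 0.51 (adjusted p = 0.019), and lower at 4 h than at 1 h, with a change of -1.78 (adjusted p = 0.01) that was -1.37 and not called without 4 h replicate 2. Its 1 h call was lost without 0 h replicate 1, 1 h replicate 1 or 1 h replicate 2, with changes of 1.72, 1.81 and 1.97, and with no pseudocount (2.15, adjusted p = 0.098). It was not called at 4 h (0.17, adjusted p = 0.85) or at 12 h (0.30, adjusted p = 0.70). At 8 h it changed by -0.91 (adjusted p = 0.18), and without 8 h replicate 2 it was -1.66 and called. Outside 1 h and 12 h, at most 2 of its 3 arrays per time were above the filter.

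Among the factors combined with KLF4 for reprogramming, MYC was called higher at 1 h. The MYC signal averaged 9514 ± 904 at 1 h and 2228 ± 919 at 0 h (SD, n = 3 each), a log2 change of 2.18 ± 0.21 (adjusted p = 3.1e-09). Of the 6 listed pluripotency factors, POU5F1, SOX2, MYC, NANOG, LIN28A and LIN28B, 4 were on the array and 2 passed the filter. MYC was the 1 called at 1 h, when 1.99% of all tested probe sets were called higher and 0.549% lower. At 4 h and at 8 h 1 of the 2 was called higher, with 7.13% and 8.01% of all tested probe sets.

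KLF6, a tumour suppressor first described as a core promoter element binding protein, rose at 1 h in both bright probe sets and stayed called higher to 12 h. Probe set 208961_s_at read 10884, 7856 and 9373 at 1 h, against 2301, 1309 and 754 at 0 h. Probe set 208960_s_at read 8729, 7365 and 6566 at 1 h, against 2098, 786 and 405 at 0 h. In both, the 1 h arrays stood well clear of the 0 h arrays, and 0 h replicate 1 was highest and replicate 3 lowest. The rises were 2.80 ± 0.23 and 3.07 ± 0.31 in log2, or 6.98-fold and 8.39-fold (adjusted p = 6.5e-11 and 7.8e-09). At 4 h 208961_s_at read 5843, 3891 and 5055, at 8 h 3212, 3536 and 3881, and at 12 h 3242, 3522 and 3052. All of these arrays lay above the highest 0 h array. The changes against 0 h at 4, 8 and 12 h were 1.87, 1.41 and 1.30 for this probe set and 2.23, 1.64 and 1.54 for 208960_s_at. Without 0 h replicate 3 the 12 h changes fell short of 2-fold for both probe sets, at 0.90 and 1.00, and the 8 h change of 208960_s_at was 1.09. With all KLF6 probe sets averaged, the changes at 8 and 12 h were 0.84 and 0.50, under 2-fold and not called. At 48 h the signals of 208961_s_at were 2402, 1837 and 1451, which overlapped the 0 h arrays, and the change was 0.49 (95% interval 0.02 to 0.97, adjusted p = 0.10). For 208960_s_at it was 0.83 (adjusted p = 0.039), under 2-fold, but 1.45 and called without 0 h replicate 1. Without that array 208961_s_at was also called at 16 h (1.06, against 0.67 with all arrays), and 208960_s_at at 16 h (1.49, against 0.87) and 24 h (1.24, against 0.62). The 16 h change of 208960_s_at was also called without 16 h replicate 2 (1.14) and under median centring (1.15).

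The third KLF6 probe set, 211610_at, did not follow the other two. It read 110, 95.6 and 164 at 1 h, against 202, 78.3 and 148 at 0 h, and the groups overlapped. Its change at 1 h was -0.14 ± 0.45 (adjusted p = 0.94), with a 95% interval of -1.06 to 0.79. Its correlation over the 8 time means was 0.29 and 0.23 with the bright KLF6 probe sets, which correlated at 1 with each other. It was called lower at 12, 16 and 48 h, with changes of -1.33, -1.30 and -1.27, but each of these calls was lost without 0 h replicate 1 (changes of -1.07, -1.03 and -1.0) or without 0 h replicate 3 (-1.27, -1.24 and -1.21). Further losses came without 12 h replicate 2 at 12 h (-0.93), without 16 h replicate 1 or 3 at 16 h (-1.23 and -1.17), and without each 48 h array in turn at 48 h (-1.28 to -1.26). With a larger pseudocount of 73.85 (18.04 otherwise) all 3 calls were lost (-0.82, -0.83 and -0.82), the 12 h call was lost with only the groups compared in the fit (adjusted p = 0.053), and the 16 h and 48 h calls were lost under quantile normalization (-1.03 and -0.94) and under median centring (-1.02 and -1.01). At 16 h and 48 h none of its arrays were above the filter.

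KLF10, also named TGF-beta inducible early gene 1, rose at 1 h, fell in the next step and was under 2-fold above its 0 h level by 4 h. Probe set 202393_s_at read 5192, 4885 and 4567 at 1 h, against 1622, 1147 and 956 at 0 h. The rise was 3.98-fold, or 1.99 ± 0.17 in log2 (adjusted p = 2.3e-10). The signals were 2240, 1871 and 1918 at 4 h and 1496, 1006 and 991 at 8 h. At 4 h every array still lay above every 0 h array, and at 8 h the arrays lay among them. KLF10 fell by 1.28 ± 0.17 between 1 h and 4 h (adjusted p = 1.2e-06). The 4 h change against 0 h was 0.72 (adjusted p = 0.002), under 2-fold. At 48 h KLF10 read 817, 930 and 1015, and the change was -0.40 (95% interval -0.75 to -0.04, adjusted p = 0.078).

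KLF5 rose at 1 h, was not called lower until the step from 4 h to 8 h, and was still above its 0 h signals at 48 h. Probe set 209212_s_at read 900, 989 and 741 at 1 h and 693, 729 and 613 at 4 h, against 175, 188 and 275 at 0 h. Probe set 209211_at read 900, 889 and 587 at 1 h and 578, 355 and 896 at 4 h, against 71.3, 41.8 and 117.5 at 0 h. In both probe sets the 1 h and 4 h arrays lay above all 0 h arrays, and 209211_at spread more widely at 4 h. The 1 h changes were 1.97 ± 0.19 and 3.15 ± 0.31, or 3.92-fold and 8.86-fold (adjusted p = 3.3e-09 and 3.7e-09). The 4 h changes were 1.62 and 2.71 (adjusted p = 6.5e-08 and 2.8e-08). Between 4 h and 8 h, 209211_at fell by 1.66 (adjusted p = 0.00064) and 209212_s_at changed by -0.98 (adjusted p = 0.0011), just under 2-fold. At 48 h 209211_at read 302, 315 and 288 and 209212_s_at read 379, 399 and 385, all above the 0 h arrays and close together. KLF5 was called higher at 48 h by 209211_at, at 1.83 ± 0.31 or 3.55-fold (adjusted p = 1.5e-05). Probe set 209212_s_at gave 0.84 ± 0.19 (adjusted p = 8e-04), under 2-fold, and was called under median centring (1.10) or without 0 h replicate 3 (1.03). At 12 h both were called higher, by 1.04 for 209212_s_at and 1.36 for 209211_at. The 12 h call of 209212_s_at was lost without 0 h replicate 1, 0 h replicate 2 or 12 h replicate 3 (0.93, 0.97 and 0.99). 209211_at was called higher at each of the 7 later times, though its 8 h change of 1.05 was lost without 0 h replicate 2, 8 h replicate 1 or 8 h replicate 3 (0.76, 0.97 and 0.98). At 0 h only 1 array of 209211_at was above the filter.

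KLF9 was not called at 1 h and fell by 4 h in both bright probe sets, after which it stayed low to 24 h. Probe set 203543_s_at read 1872, 1921 and 1967 at 1 h, against 1602, 1810 and 1393 at 0 h, without overlap. Probe set 203542_s_at read 2374, 2127 and 2189 at 1 h, against 1744, 2191 and 1687 at 0 h, where the groups overlapped. The 1 h changes were 0.27 ± 0.19 (95% interval -0.12 to 0.65, adjusted p = 0.55) and 0.26 ± 0.24 (-0.23 to 0.74, adjusted p = 0.68). By 4 h the signals of 203543_s_at were 591, 470 and 366, and those of 203542_s_at were 423, 557 and 501. No array of either probe set at 4 h came near the 0 h range. KLF9 fell at 4 h by 1.73 ± 0.19 and 1.88 ± 0.24 relative to 0 h (adjusted p = 8.7e-09 and 1.8e-07), and by 2.00 and 2.14 relative to 1 h (adjusted p = 8.1e-10 and 2.5e-08). It stayed called lower in both probe sets at 8, 12, 16 and 24 h, where 203543_s_at changed by -1.51, -1.62, -1.83 and -1.73. At 48 h the probe sets parted. 203543_s_at read 802, 791 and 866, a change of -0.94 ± 0.19 (adjusted p = 0.00013) that did not reach 2-fold, though without 0 h replicate 3 it was -1.04 and called. 203542_s_at read 359, 481 and 497, a change of -2.03 ± 0.24 (adjusted p = 2.1e-08). From 24 h to 48 h 203543_s_at changed by 0.78 (95% interval 0.40 to 1.16, adjusted p = 0.012), under 2-fold, and 203542_s_at by 0.48 (-0.01 to 0.96, adjusted p = 0.39). The dim probe set 203541_s_at read 217, 155 and 126 at 1 h, against 74.6, 51.3 and 76.6 at 0 h, a change of 1.09 ± 0.53 (adjusted p = 0.32). Its call at 24 h, -1.43 (adjusted p = 0.036), was lost without 0 h replicate 1, 0 h replicate 3, 24 h replicate 2 or 24 h replicate 3 (-1.36, -1.35, -1.40 and -1.34), under quantile normalization (-1.18), under median centring (-1.21), with the larger pseudocount (-0.69) and with only the groups compared in the fit (adjusted p = 0.063). From 1 h to 4 h it changed by -1.43 (adjusted p = 0.052), and it was called without 4 h replicate 2, at -1.70. At 24 h and 0 h none of its arrays were above the filter and all 3 were at 1 h.

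Counts of called members changed over the course. At 4 h 6 probe sets were higher and 2 lower than at 0 h, with 7.13% and 6.38% of all tested probe sets. At 8 h the counts were 4 and 2, with 8.01% and 9.3% of all. At 12 h they were 5 and 3, with 8.46% and 9.48%, and without 0 h replicate 3 only 4 members in all were called at 12 h. At 16 h 1 was higher and 3 lower (8.52% and 11.1% of all), at 24 h 1 and 3 (9.26% and 10.8%) and at 48 h 1 and 2 (9.23% and 11%). Without 0 h replicate 3, 5 members were called at 48 h. The 1 higher from 16 h on was KLF5, and the lower ones were KLF9 and the dim KLF6 probe set 211610_at.

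In the step between 1 h and 4 h, 6 members were called lower and none higher, covering KLF2, KLF4, KLF9 and KLF10, while 4.02% of all tested probe sets were called lower and 5.75% higher. KLF6 208961_s_at changed by -0.93 ± 0.23 (adjusted p = 0.0033), under 2-fold but -1.05 without 1 h replicate 2 and -1.06 without 4 h replicate 1, both called, and KLF6 208960_s_at by -0.84 (adjusted p = 0.053). KLF5 changed by -0.36 in 209212_s_at (adjusted p = 0.21) and by -0.44 in 209211_at (adjusted p = 0.37). The share of the 1 h log2 rise left at 4 h was 82% and 86.1% for the KLF5 probe sets and 66.8% and 72.6% for KLF6. It was 49.6% and 8.6% for KLF4 221841_s_at and 220266_s_at, 49.4% for KLF2 and 36% for KLF10. At 48 h the shares were 42.7% and 58.1% for KLF5, 17.5% and 27% for KLF6, -4.4% and -30.7% for KLF4, -19.8% for KLF10 and -40.6% for KLF2, where a minus sign means a mean below 0 h. Between 4 h and 8 h 1 member, KLF5 209211_at, was called lower, with 1.56% of all tested probe sets. In the later steps limma called no member: 2 of 12 had an unadjusted p under 0.05 from 8 h to 12 h, 4 from 12 h to 16 h, 1 from 16 h to 24 h and 2 from 24 h to 48 h. Called in these steps, by adjusted p and 2-fold, were 0.362%, 0.204%, 1.15% and 1.2% of all tested probe sets. These shares stand beside the absence of called members, and a share at unadjusted p is not given here.

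**Figure D2:**
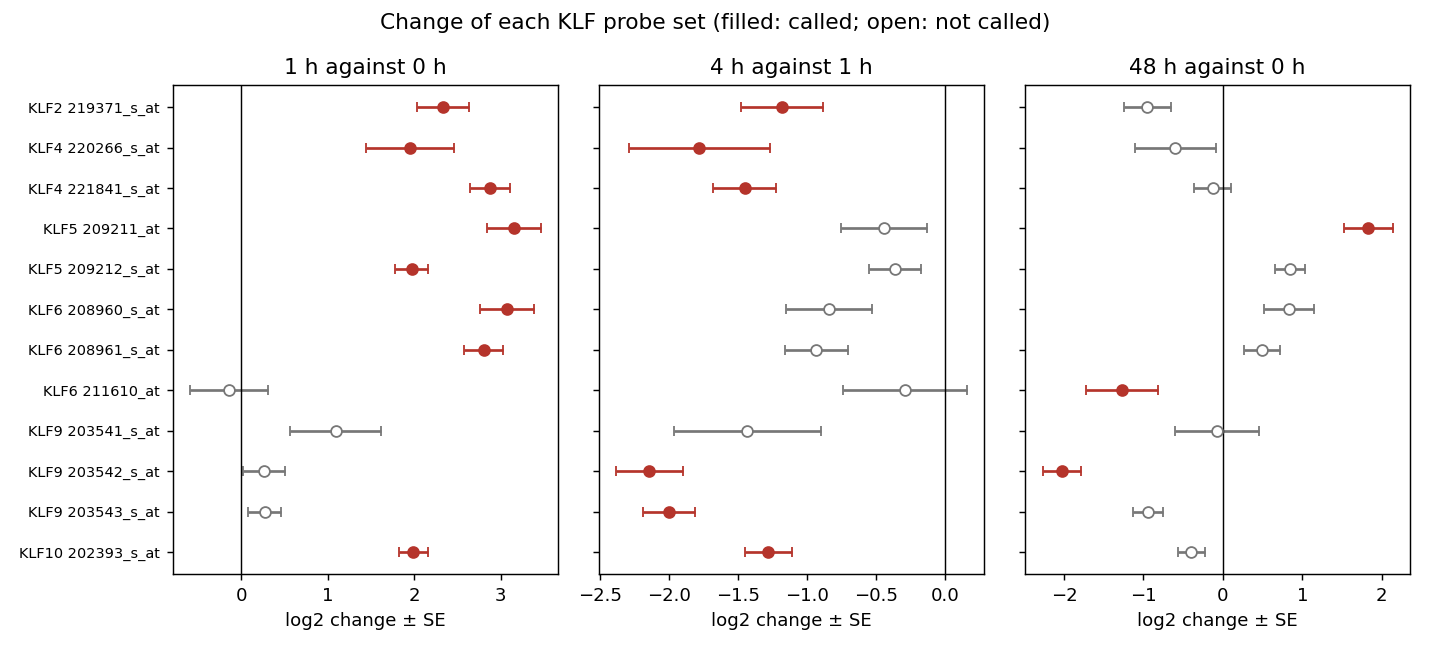
Log2 change with its SE for the 12 member probe sets at 1 h against 0 h, at 4 h against 1 h and at 48 h against 0 h; filled points were called, open points were not. At 1 h 8 probe sets are called higher, in the step to 4 h 6 are called lower, and at 48 h KLF5 209211_at alone is called higher.

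**Figure D3:**
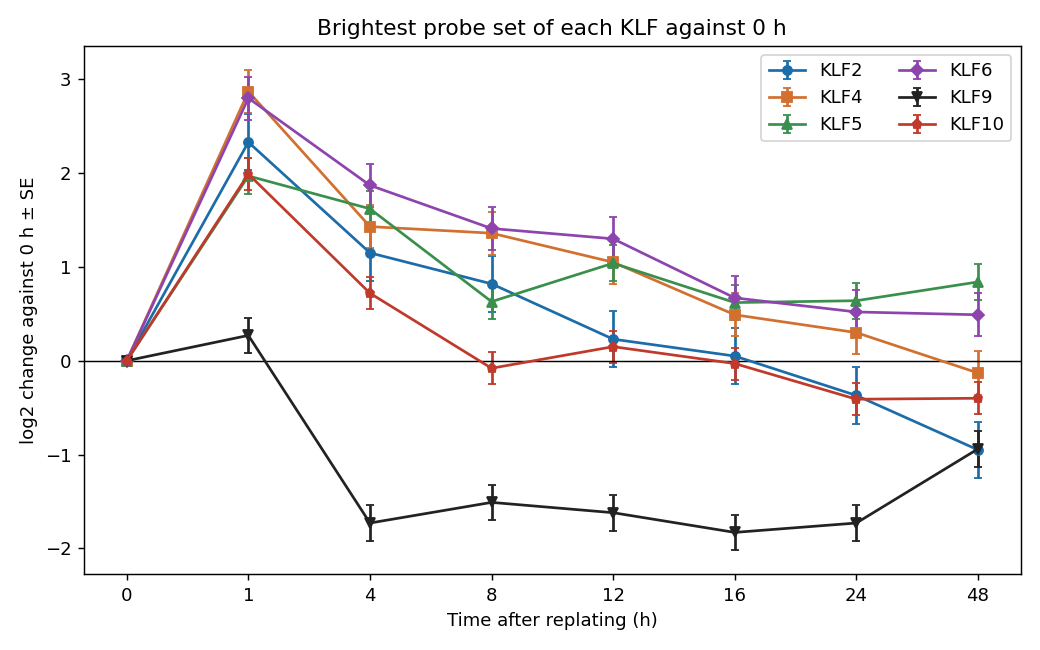
Log2 change against 0 h with its SE (limma) for the probe set of highest mean of each gene over the 8 times, drawn at even spacing. KLF9 stays near 0 at 1 h (0.27) and lies below 0 from 4 h on, and KLF5 ends highest, at 0.84.

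The difference between members was described within arrays, as the log2 signal of the probe set of highest mean of 1 gene minus that of another. This covered 20 picked pairs of genes and times, not all pairs. With 3 arrays against 3 the smallest two-sided exact permutation p is 0.1, so no pair could pass 0.05, and the adjusted value for every pair without overlap was 0.13. The test therefore could not decide whether a pair differed, and overlap was not counted over other genes. The change of KLF9 at 1 h lay below that of each of the 5 other genes, by -1.71 (minus KLF5) to -2.61 (minus KLF4), and no array of the difference at 1 h overlapped those at 0 h. At 4 h the differences ran from -2.45 (minus KLF10) to -3.60 (minus KLF6), again without overlap. In the step between 1 h and 4 h, KLF5 changed by 0.82 ± 0.10 relative to KLF2, 1.09 ± 0.23 relative to KLF4 and 0.92 ± 0.14 relative to KLF10, without overlap. KLF6 over the same step differed by 0.25 ± 0.31 from KLF2, 0.51 ± 0.26 from KLF4 and 0.34 ± 0.17 from KLF10, and these overlapped (exact p = 0.5, 0.3 and 0.2). At 48 h KLF5 stood 1.79 ± 0.71 above KLF2 and 1.24 ± 0.40 above KLF10 in change, without overlap. Against KLF4 (0.97 ± 0.64, exact p = 0.3) and KLF6 (0.35 ± 0.67, exact p = 0.6) it overlapped. KLF5 entered by 209212_s_at, whose own change at 48 h was 0.84, against 1.83 for 209211_at.

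The courses were set against all other genes by the correlation of the 8 time means, over 5775 genes that varied with time. These values are descriptions, since the points share their arrays. KLF4 was most like SOX9, a biliary and progenitor transcription factor, with r = 0.993, then BMP2 (0.98) and TSC22D2 (0.974). SOX9 also led for KLF2 (0.979), followed by PDP1 (0.977) and PPP1R15A (0.965), which encodes a phosphatase subunit of the stress response. SOX9 changed by 2.31 at 1 h and -0.42 at 48 h on the log2 scale. KLF6 was most like GEM (0.99), an immediate early GTPase, PHLDA1 (0.982) and BMP2 (0.978). KLF5 was most like RIPK2 (0.99), MAFF (0.963) and RND3 (0.947), and these 3 changed by 0.66 to 2.22 at 48 h. KLF10 was most like TRIB1 (0.988), NFKBIA (0.955), the inhibitor of NF-kappaB, and REL (0.955). KLF9 was most like GRAMD2B (0.987), IRF7 (0.979) and FGFR4 (0.975), the hepatocyte receptor for FGF19. At the opposite end, with the lowest r, stood MAN1B1 (-0.976) and VCAN (-0.958, from a probe set marked for possible cross-hybridization) for KLF2. For KLF4 these were BAD (-0.948) and WDR47 (-0.937), for KLF5 ZNF200 (-0.914) and SPCS3 (-0.892, cross-hybridization possible), and for KLF6 BAD (-0.957) and ZFP30 (-0.923, cross-hybridization possible). For KLF9 they were ATP13A3 (-0.992) and MTA1 (-0.985), and for KLF10 MED18 (-0.982) and G6PC3 (-0.971). Among the members, KLF4 correlated at 0.97 with KLF6 and 0.96 with KLF2, KLF5 at 0.92 with KLF6, and KLF9 at 0.12 to 0.55 with the other 5.

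Of 19 other KLF and SP genes, 12 had a probe set of their own symbol and 10 passed the filter. Only KLF11 among these 10 was called at 1 h, where 1.99% of all tested probe sets were called higher and 0.549% lower. KLF11, a close relative of KLF10 and likewise TGF-beta inducible, averaged 785 ± 143 at 1 h and 325 ± 52 at 0 h (SD, n = 3 each), a change of 1.22 ± 0.21 (adjusted p = 0.00015), and it fell by 1.16 in the step to 4 h (adjusted p = 9.1e-05). At 24 h 1 of the 10 was called higher and 3 lower, with 9.26% and 10.8% of all tested probe sets. KLF7 was the 1 called higher, at 307 ± 57.6 at 24 h against 125 ± 58.7 at 0 h, a change of 1.27 ± 0.31 (adjusted p = 0.0015). KLF15, a glucocorticoid-induced regulator of gluconeogenesis and amino acid breakdown, fell to 30.5 ± 33.5 at 24 h, against 163 ± 77.1 at 0 h, a change of -2.0 ± 0.56 (adjusted p = 0.0051). KLF1, the erythroid member, changed by -1.52 ± 0.52 at 24 h (adjusted p = 0.023) and KLF13 by -1.46 ± 0.37 (adjusted p = 0.0023). KLF1 was dim, with 113.7 ± 13.6 at 0 h, where array medians were 129.9 to 141.9, and 35.6 ± 34.5 at 24 h. Unlike KLF13 (adjusted p = 0.024), KLF1 did not pass the F-test over the 7 later times (adjusted p = 0.17). KLF13 spread widely at 24 h, with 106.8 ± 97.7 against 275.6 ± 94.8 at 0 h, and was not called at 16 h (-0.49) or 48 h (-0.80). At 48 h KLF7 (1.02), KLF15 (-1.88) and KLF3 (-1.35, a CtBP-binding repressor) were called. Of all tested probe sets, 9.23% were called higher and 11% lower at 48 h. KLF8, SP2 and SP3 were called in neither the 1 h nor the 24 h nor the 48 h comparison. For KLF12 the probe set of highest mean changed by 1.52 at 1 h (adjusted p = 0.14) and the other KLF12 probe sets by -0.22 and -0.02, and 1 of them was called lower at 24 h (-1.58, adjusted p = 0.038). SP1 and SP4 were below the filter.

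**Figure D4:**
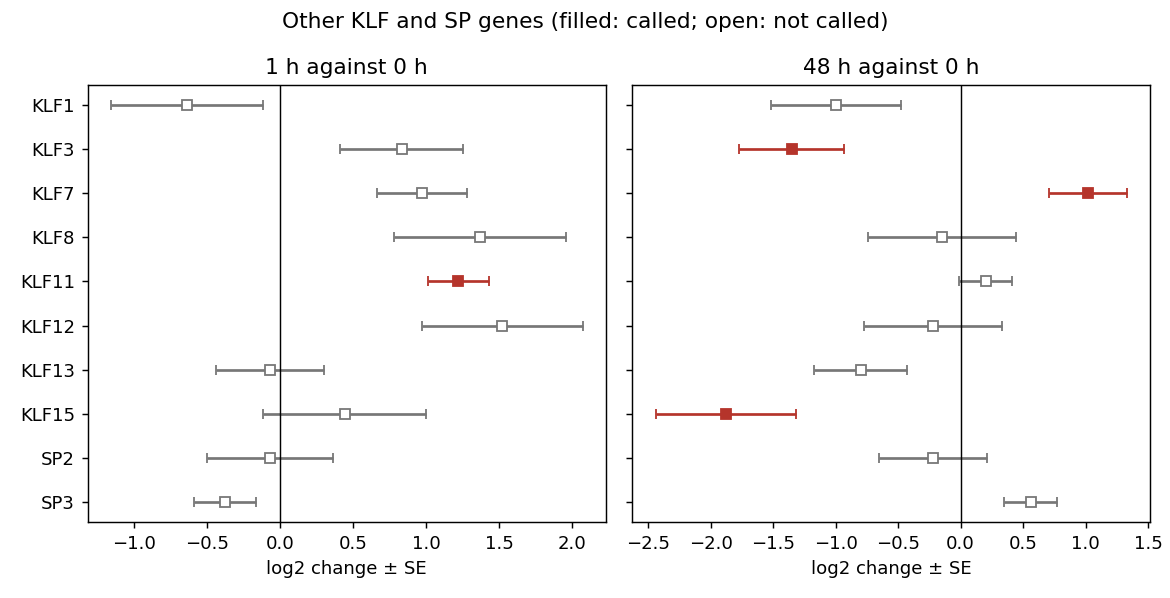
Log2 change with its SE for the 10 measurable other KLF and SP genes, at 1 h against 0 h and at 48 h against 0 h; filled points were called. At 1 h KLF11 alone is called, and at 48 h KLF7 is called higher and KLF3 and KLF15 lower.

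Genes of the pathways around each factor were counted from lists, with 1 probe set per gene. Glucocorticoid and thyroid hormone response genes, chosen because these hormones regulate KLF9, had 15 members tested of 18. At 1 h 4 were called higher and none lower (1.99% and 0.549% of all tested probe sets), and at 12 h 1 higher and 8 lower (8.46% and 9.48%). At 24 h none were higher and 9 lower (9.26% and 10.8%). At 12 h the largest changes were in PCK1, the gluconeogenic enzyme, which averaged 12.2 ± 12 against 753 ± 144 at 0 h (SD, n = 3 each), a change of -4.72 ± 0.43 (adjusted p = 1.3e-10) whose size depends on the pseudocount, since the 12 h mean lay below it. TAT, tyrosine aminotransferase, changed by -3.37 ± 0.40 in a probe set marked for possible cross-hybridization and by -2.12 in another. TSC22D3, the glucocorticoid-induced leucine zipper, changed by -1.76 ± 0.16, though by -0.96 in another probe set that was not called, and ZBTB16 by -1.45 ± 0.24. KLF9 changed by -1.62 at the same time.

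TGF-beta early response genes, listed because KLF10 belongs to that response, had 16 members tested of 19. At 1 h 3 were called higher and none lower, namely TGFB2 (1.91), TGIF1 (2.29) and ID3 (1.51), beside KLF10 at 1.99. At 24 h 4 were higher and 2 lower. Of all tested probe sets, 1.99% were called higher at 1 h, and 9.26% higher and 10.8% lower at 24 h. The ligand TGFB2 averaged 651 ± 34.6 at 24 h and 20.8 ± 32.5 at 0 h, a change of 4.41 ± 0.33 (adjusted p = 7.1e-13), with 1.63, 0.68 and 0.98 in its other probe sets. The 0 h mean of this TGFB2 probe set lay near the pseudocount of 18.04, so the size of its change depends on that setting. ID3 changed by 2.31, TGIF1 by 1.20 and ID2 by -2.08 at 24 h, while KLF10 was not called then.

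The MEK5, ERK5 and MEF2 genes that act upstream of KLF2 and KLF4 in endothelium had 10 members tested of 11, and none was called at 1 h. At that time 1.99% of all tested probe sets were called higher and 0.549% lower. At 4 h 3 were called lower and none higher, with 6.38% and 7.13% of all tested probe sets. MAP3K2 changed by -2.21 ± 0.50, MAP2K5, which encodes MEK5, by -1.76 ± 0.41 and MEF2C by -1.09 ± 0.31 (adjusted p = 0.00092, 0.0013 and 0.0079). At 4 h MAP3K2 was dim, at 36.6 ± 49.6 against 179 ± 39 at 0 h (SD), and MAP2K5 averaged 66.1 ± 36.4 against 256 ± 86.1. The other MAP2K5 probe sets changed by -1.44 and -1.28, both called, and by -1.14, not called. Serum response factor and its ternary complex partners had 4 members tested of 6, none called at 1 h. ELK3 was called higher at 4 h, by 3.70 ± 0.21 (adjusted p = 4.3e-15), but its other probe set gave 0.67 and was not called.

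Of 30 genes described as targets of these factors, 26 were tested. At 1 h 2 were called higher, EDN1 (2.07 ± 0.23) and ATF3 (3.47 ± 0.26), and TAGLN was called lower (-1.68 ± 0.46). The shares of all tested probe sets at 1 h were 1.99% higher and 0.549% lower. At 16 h 7 were higher and 3 lower, against 8.52% and 11.1% of all tested probe sets. CCND1, cyclin D1, averaged 1366 ± 98.7 at 16 h and 246 ± 55.6 at 0 h, a change of 2.41 ± 0.18 (adjusted p = 7.6e-13). CCNB1 changed by 2.07 ± 0.17 and KRT19, a biliary keratin, by 2.17 ± 0.15. TXNIP, a brake on glucose uptake, changed by -2.37 ± 0.35 (adjusted p = 1.9e-06) and was called lower in its other probe sets too.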

How the data were processed

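RNA of 24 HepaRG samples was read on a 1-colour Affymetrix 3′ array. The deposited values are linear intensities, which the authors made with MAS5, as the submitters' processing notes name it; the MAS5 version and the scaling target were not given in the sources used here. The mean signal of each array without its extremes was 500.2 to 500.3 and array medians were 99.76 to 141.9, so arrays had been scaled and no normalization was added. No 2 arrays were identical.

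Signals entered as log2(signal + 18.04), the 20th percentile of all signals, so changes of dim probe sets are understated. Tests covered the 17122 of 22215 probe sets that lay above the array's own 40th percentile on at least 3 of 24 arrays. limma 3.58.1 in R 4.3.3 fitted all arrays by time (eBayes with trend, 16 residual degrees of freedom), with Benjamini-Hochberg adjustment over all tested probe sets in each of 13 comparisons; log2 changes have their SE. Probe sets with several symbols (1043) or none (2107) named no gene. The number of arrays limits the precision.

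The member genes and lists were chosen with earlier results of these data known. Named were all member probe sets, the 3 most and 2 least alike genes of each, and up to 4 called members per list with the largest change at the time against 0 h that called most; other named list members were taken from the same counts after their values were seen. Same-numbered arrays of different times deviated together at r of -0.055 to 0.068, so the numbers do not pair samples. Alternatives were other pseudocounts, filters, scalings, summaries per gene, no trend, only the groups compared, a replicate block and leaving out each array. Plots used matplotlib 3.10.9 (Python 3.11.15).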

Additional observations from a re-analysis of the deposited data

How the results depend on the processing

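Of 97 single changes reported, 48 were called, and no called change turned its direction under any alternative. Counts of called members moved by over 1.5 times under few settings. With no pseudocount 2 members were called from 4 h to 8 h in place of 1, and with a larger pseudocount of 73.85 4 members were called at 12 h in place of 8. With 1 probe set per gene the counts are of 6 genes: 5, 5, 3, 4, 1, 1 and 0 at the 7 later times in order, 0 from 4 h to 8 h and 6 by the F-test. With probe sets averaged per gene they were 5, 4, 1, 2, 2 and 2 at the times to 24 h and 6 by the F-test. These are fewer features by construction. Leaving out each array in turn, calls at 1 h numbered 7 to 8, those at 4 h 7 to 8, those at 8 h 5 to 7, those at 12 h 4 to 8, those at 16 h 3 to 5, those at 24 h 3 to 4 and those at 48 h 2 to 5, with 6 to 7 from 1 h to 4 h, 1 to 2 from 4 h to 8 h, 0 to 0 in the later steps and 11 to 12 by the F-test. From 4 h to 8 h there were 2 without 4 h replicate 3, 8 h replicate 1 or 8 h replicate 2. The replicate block left the member calls at 8 at 1 h and 3 at 48 h and changed no other count of called members, and 11 of 24 arrays correlated best with their own number.

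Some changes that were not called turned their direction. Under quantile normalization KLF9 203541_s_at at 48 h was 0.27, and under median centring it was 0.20, KLF10 was 0.09 at 8 h and 0.24 at 16 h, and KLF4 221841_s_at was 0.14 at 48 h. With the mean of its probe sets KLF4 was -0.05 at 16 h and -0.17 at 24 h. Leaving out an array gave ranges of -0.28 to 0.12, -0.02 to 0.36 and -0.20 to 0.17 for KLF10 at 8, 12 and 16 h, and -0.27 to 0.62, -0.45 to 0.44 and -0.87 to 0.01 for KLF2 at 12, 16 and 24 h. They were -0.18 to 0.57 and -0.01 to 0.52 for KLF4 220266_s_at at 4 and 12 h, and -0.12 to 0.60 and -0.55 to 0.17 for KLF4 221841_s_at at 24 and 48 h. For KLF6 211610_at they were -0.46 to 0.13 at 1 h and -0.56 to 0.09 from 1 h to 4 h, and for KLF9 203541_s_at -0.61 to 0.09, -0.86 to 0.15 and -0.26 to 0.26 at 4, 8 and 48 h. The cause was not tested.

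Scaling moved the whole table. The median change of all tested probe sets at 48 h was -0.12 as deposited, 0.017 under quantile normalization and 0.141 under median centring. Among called probe sets the share higher was 45.6%, 55% and 66.7% at 48 h, and 52.8%, 59.1% and 66.3% at 4 h. The member calls at 48 h were 1 higher and 2 lower as deposited, and 3 higher and 1 lower under median centring.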

Other observations

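Of 11 listed cofactor genes of these factors, repressors and acetyltransferases, 9 were tested, and none was called at 1 h or 4 h against 0 h. Of all tested probe sets, 1.99% were called higher and 0.549% lower at 1 h, and 7.13% and 6.38% at 4 h. Called at 8 h were 1 higher and 2 lower, with 8.01% and 9.3% of all. At 8 h KAT2B, an acetyltransferase, averaged 189 ± 35.4 against 802 ± 209 at 0 h (SD, n = 3 each), a log2 change of -1.97 ± 0.24 (limma adjusted p = 7e-08). EP300 changed by -1.03 ± 0.24 at 8 h, and by -0.26 in another probe set that was not called. The corepressor CTBP2 changed by 1.01 ± 0.30 at 8 h in a probe set marked for possible cross-hybridization, and its other probe sets gave 2.01, 0.72, 2.48 and 0.57. At 48 h the histone deacetylases HDAC1 (1.07 ± 0.14) and HDAC2 (1.00 ± 0.14) were called higher. KAT2B was called lower then (-1.06 ± 0.24), with 9.23% higher and 11% lower of all tested probe sets.

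Of 8 ubiquitin ligases described to act on Krüppel-like factors 7 were tested, and none was called at 1 h. Of all tested probe sets, 1.99% were called higher and 0.549% lower at 1 h. The shares were 8.01% and 9.3% at 8 h, and 9.23% and 11% at 48 h. At 8 h SMURF2 changed by 1.27 ± 0.28 and SMURF1 by 1.13 ± 0.24 (limma adjusted p = 0.00056 and 4e-04), while 2 other SMURF1 probe sets, at 0.69 and 1.02, were not called. At 48 h ITCH was called lower, by 1.05 in size, from a probe set marked for possible cross-hybridization.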
